A study of Mus musculus with 4 samples.

Results

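Mast cells and basophils were followed in mouse lung through 10 genes that are commonly used to recognize them, Mcpt8, Mcpt4, Cma1, Cpa3, Tpsb2, Fcer1a, Ms4a2, Kit, Gata2 and Hdc. They were taken by symbol from 23282 rows, and each symbol had 1 row. The lungs came from male CDF1 mice in a design that crossed high-intensity treadmill exercise (E) with tumor (T). E(-)T(-) was the normal control, E(+)T(-) the normal exercise group, E(-)T(+) the cancer control and E(+)T(+) the cancer exercise group. Tumor was induced with cells of the mouse colorectal carcinoma line CT26, injected into the tail vein, and tumor-bearing mice also received the imaging reagent MMPSense680 by that vein before metastasis was imaged. The labels place the mice at postnatal day 28. That is also the age at which the animals were bought, and they were killed later, at the end of the experiment. The label is therefore not the age at sampling, which the sources used here do not state. Each group had 10 mice and 1 lung library, and the sources used here do not state outright whether that library was made from a single animal or from pooled RNA. The muscle profiles were made from a representative mouse of each group, and the lungs are described as analysed likewise. There were therefore no replicates, and no difference given below has a replicate check or a p-value.

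Mast cells and basophils are granulocytes that carry the high-affinity IgE receptor on their surface and release histamine and proteases when IgE bound to that receptor meets its antigen. The receptor has an alpha chain (Fcer1a) that binds IgE, a beta chain (Ms4a2) that amplifies the signal and a gamma chain (Fcer1g) that many other myeloid cells share. Mast cells mature in the tissue under stem cell factor and its receptor Kit, and store chymases, tryptases and carboxypeptidase A3. Basophils circulate in blood, respond to interleukin 3, and in mice express the serine protease Mcpt8. Gata2 is a transcription factor that both lineages need. Hdc makes histamine from histidine. Kit and Gata2 are also expressed by endothelial cells and hematopoietic progenitors, and Hdc also by neutrophils and their precursors.

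Recovered reads amounted to 13017338 for the normal control, 12780535 for normal exercise, 9354511 for the cancer control and 13368007 for cancer exercise. A floor of 3 reads, the smallest number read as signal here, stood for 0.231, 0.235, 0.321 and 0.224 CPM (reads scaled to a fixed library total) in the same order. All 8 lung epithelial markers examined, surfactant protein C (Sftpc) among them, had reads in every library. E(-)T(+) stood apart from the other libraries. All 8 epithelial markers and all 10 endothelial markers were at least 2-fold lower there than in E(-)T(-), and the summed normalized count of the epithelial markers was 147797, against 640414 for the normal control, 779159 for normal exercise and 696942 for cancer exercise. Hemoglobin genes took 1.43% of the reads of that library, 14.3% for the normal control, 14.2% for normal exercise and 31.4% for cancer exercise. Of the 4 comparisons below, the ones that use the E(-)T(+) library are the effect of tumor without exercise and that of exercise with tumor. In whole tissue, fewer cells of a type and less RNA per cell cannot be told apart.

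The proteases are shown first by the DNA in front of them, because 3 of these genes lie in 1 cluster on chromosome 14 and their levels differed in these libraries. In GENCODE release M21 (GRCm38), Cma1 is at chr14:55941451-55944675, Mcpt4 at chr14:56059629-56062313 and Mcpt8 at chr14:56082166-56085273, all on the minus strand, and Cpa3 is at chr3:20215620-20242181 on the minus strand. The 250 bases upstream of the transcription start are given below from RefSeq (GRCm38.p6), 5′ to 3′ on the strand of the gene. They span chr14:56085198-56085447 for Mcpt8, chr14:56062311-56062560 for Mcpt4, chr14:55944676-55944925 for Cma1 and chr3:20242182-20242431 for Cpa3. The RefSeq start sites are not always those of GENCODE, so the stretches for Mcpt8 and Mcpt4 lie partly inside the genes as placed above. Capitals mark the GATA words, hexamers of the kind that GATA factors bind. The word AGATAA was searched on both strands, and so was AGATAG, as were TGATAA and then TGATAG.
Mcpt8: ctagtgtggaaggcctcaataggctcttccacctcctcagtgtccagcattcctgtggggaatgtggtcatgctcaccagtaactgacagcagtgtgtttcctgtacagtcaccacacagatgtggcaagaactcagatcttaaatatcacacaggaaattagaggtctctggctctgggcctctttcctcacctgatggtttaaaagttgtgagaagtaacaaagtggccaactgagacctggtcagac
Mcpt4: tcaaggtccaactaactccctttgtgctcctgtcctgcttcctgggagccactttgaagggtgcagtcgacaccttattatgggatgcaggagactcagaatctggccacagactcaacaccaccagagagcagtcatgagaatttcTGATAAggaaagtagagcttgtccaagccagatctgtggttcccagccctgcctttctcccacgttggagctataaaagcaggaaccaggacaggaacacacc
Cma1: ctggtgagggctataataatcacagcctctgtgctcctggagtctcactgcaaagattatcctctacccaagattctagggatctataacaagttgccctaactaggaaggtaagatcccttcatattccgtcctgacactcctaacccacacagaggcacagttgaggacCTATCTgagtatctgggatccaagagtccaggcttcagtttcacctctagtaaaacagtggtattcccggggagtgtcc
Cpa3: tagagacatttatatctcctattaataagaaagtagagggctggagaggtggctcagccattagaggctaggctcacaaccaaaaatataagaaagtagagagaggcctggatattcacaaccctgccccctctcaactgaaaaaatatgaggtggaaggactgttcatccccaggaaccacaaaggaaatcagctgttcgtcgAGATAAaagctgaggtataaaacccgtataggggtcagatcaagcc
Mcpt4 had TGATAA at base -103 from the start site, Cpa3 had AGATAA at -46, and Cma1 had AGATAG on the opposite strand at -79. Mcpt8 had none of these words. In windows from 250 bases before to 50 bases after the start, a GATA word was present for 6 of the 9 genes with a promoter in the table, namely Mcpt4, Cma1, Cpa3, Fcer1a, Ms4a2 and Hdc, and absent for Mcpt8, Kit and Gata2. Of all 32851 mouse promoters of that length, 29.8% held at least 1. Tpsb2 had no entry. The Hdc word, at -221 from the RefSeq start, lies inside the Hdc gene as GENCODE places it. Ms4a2 held 3 such words, and 7.77% of promoters held 2 or more. A match is a description of letters and not of a bound site.

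For each gene 4 differences of the deposited log2 values were read. The exercise effect without tumor sets E(+)T(-) against E(-)T(-), and the exercise effect with tumor sets E(+)T(+) against E(-)T(+). The tumor effect without exercise sets E(-)T(+) against E(-)T(-). With exercise, the tumor effect sets E(+)T(+) against E(+)T(-). In each the library named first is the numerator. These comparisons share libraries and are not independent of each other. The deposited value is log2(normalized read count + 1), so a fold change is on that scale, which makes the change of a low gene look smaller than it is. A gene was called at a difference of 2-fold or more. Of the 10 genes, 9 reached a mean of 4 normalized counts over the 4 libraries and Ms4a2 did not. Mcpt8 passed that filter only through E(+)T(+), so that its difference in the comparisons with that library was bound to be large. Mcpt4 and Fcer1a would also have missed the mean of 4 without their counts in E(+)T(+). Given their other values, the filter fixed their calls in the exercise effect with tumor. Beside the read ratios stand 95% exact (Clopper-Pearson) intervals, which carry no pseudocount and cover counting error only.

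By the deposited values, the cancer control was the lowest library for 7 of the 10 genes (Mcpt4, Cma1, Cpa3, Fcer1a, Ms4a2, Kit and Hdc), and cancer exercise the highest for 6 (Mcpt8, Mcpt4, Cpa3, Tpsb2, Fcer1a and Hdc). Fcer1a, however, had 7 reads in both exercise libraries, and its difference between them was -0.06 with library totals alone. In cancer exercise Kit, Cma1 and Gata2 were below both libraries without tumor. In the exercise effect with tumor, 7 of the 9 genes were called higher and none lower, with a median difference of 2.40, where 24.3% of the 15164 rows that passed the filter were called higher and 17.7% lower. Among those 7, the calls of Mcpt8, Mcpt4 and Fcer1a were fixed by the filter. In the tumor effect without exercise, 5 were called lower and none higher, with a median of -1.23, where 25.7% of all rows were called lower and 20.6% higher. The comparisons without the E(-)T(+) library gave smaller counts. In the tumor effect with exercise, 3 were called higher (Mcpt8, Mcpt4 and Hdc) and 1 lower (Gata2), with a median of 0.76, where 14.9% of all rows were called higher and 13.0% lower. In the exercise effect without tumor, Cpa3 alone was called higher, and only just, and no gene lower, with a median of 0.29, where 5.28% of all rows were called higher and 4.7% lower. The medians over all rows lay between -0.034 and 0.009 in the 4 comparisons. With no filter, Ms4a2 added 1 gene called higher to both exercise effects and 1 called lower to the tumor effect without exercise, where it was at or under 3 reads in both libraries.

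**Figure D1:**
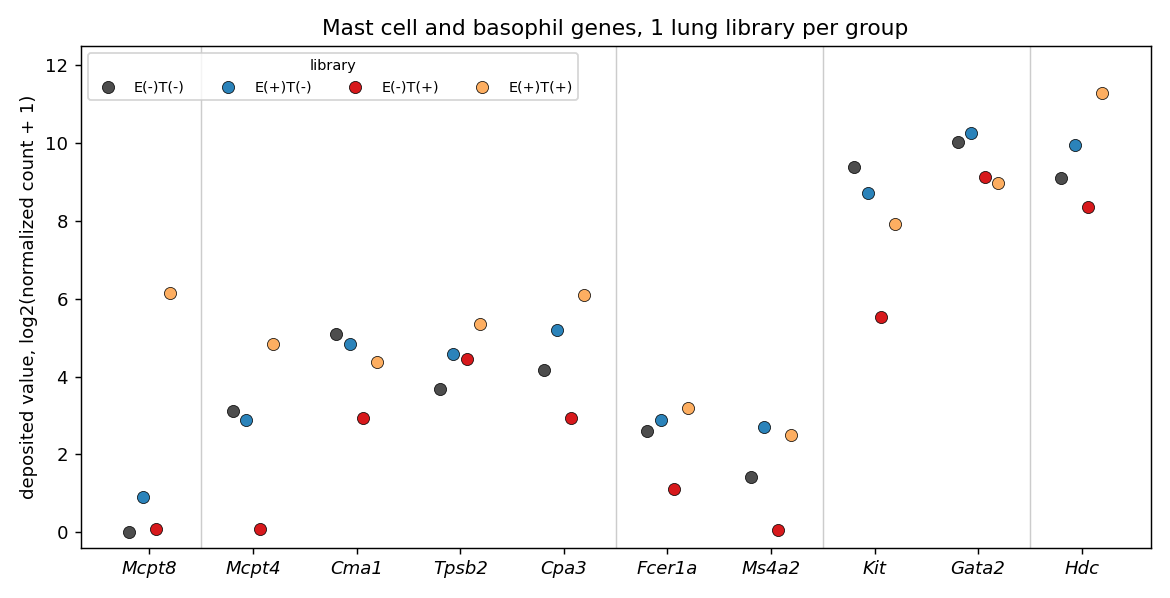
Deposited values, log2(normalized read count + 1), of the 10 genes (x axis) in the 4 lung libraries, 1 point per library and no error bar because there are no replicates. Mcpt8 stands at 6.14 in E(+)T(+) and at or below 0.90 elsewhere, and E(-)T(+) is the lowest point for Mcpt4, Cma1, Cpa3, Fcer1a, Ms4a2, Kit and Hdc.

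**Figure D2:**
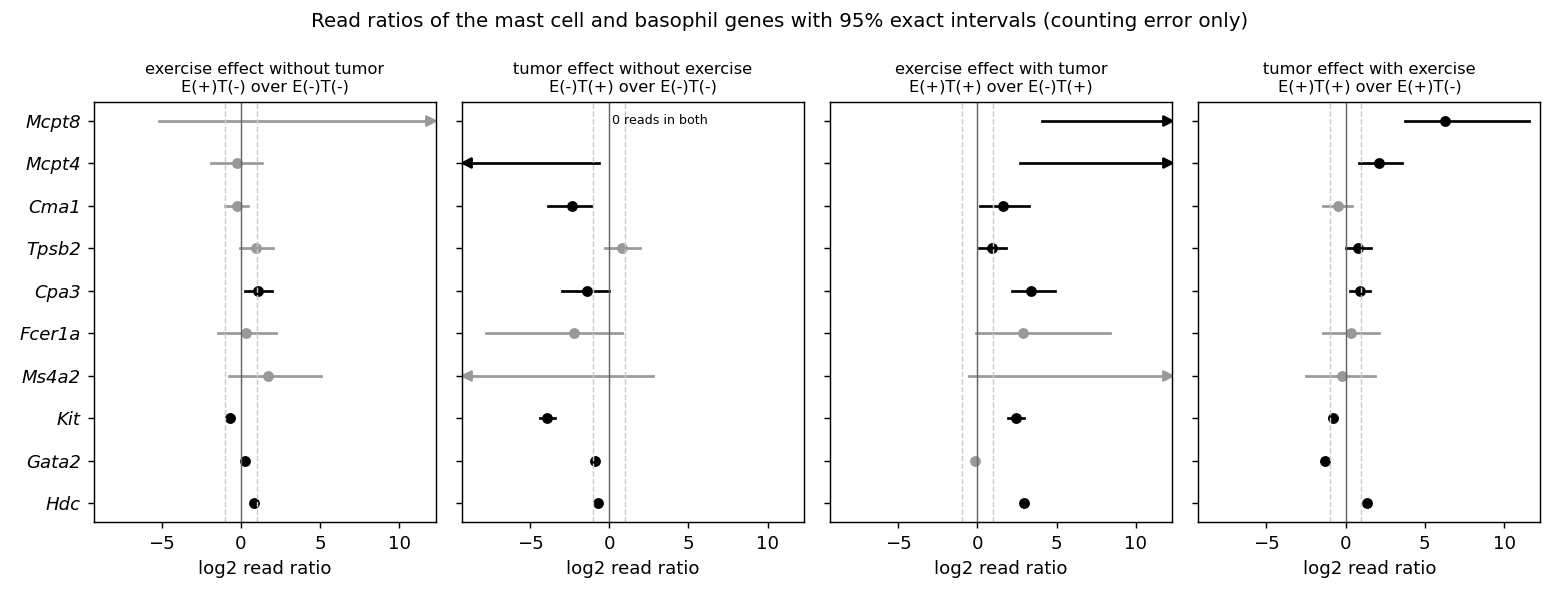
Log2 read ratio (x axis) of each gene (y axis) in the 4 comparisons, scaled by effective library size, with 95% exact intervals for counting error. Black marks an interval that leaves out 0 and grey one that includes it, arrows mark an open end where a library has 0 reads, and dashed lines mark 2-fold. The intervals of Kit, Gata2 and Hdc are narrow and those of Fcer1a and Ms4a2 include 0 in every panel.

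The basophil protease gene Mcpt8 was nearly confined to one library. It had 60 reads in E(+)T(+), whereas 1 read was found for normal exercise and 0 for the normal control and the cancer control. The deposited log2 values were 0, 0.90, 0.08 and 6.14. These and all series of 4 values below run from the normal control to normal exercise, then to the cancer control and last to cancer exercise. The value of 0.08 stands for 0 reads after the authors' normalization. In E(+)T(+) the abundance was 4.49 CPM, with a 95% exact interval of 3.43 to 5.78. The difference over E(+)T(-) was 5.24 on the log2 scale, and the interval of the read ratio ran from 3.72 to 11.6. Over E(-)T(+) the fold is a lower bound, since that library had no read: with 3 reads in its place Mcpt8 was at least 21.3-fold higher in E(+)T(+), and the interval of the read ratio began at 4.07. The other libraries held 0 or 1 read, at or under the floor, so no fold is given among them. The miRNA gene Mir6949 lies inside Mcpt8 on the same strand. No 75-base word, the read length, in the last 500 bases of the Mcpt8 transcript was shared with another gene.

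Of 6 other basophil genes listed, Prss34 was also by far highest in E(+)T(+). Prss34, a tryptase of mouse basophils and mast cells, had 2, 2, 0 and 43 reads. Its difference in the tumor effect with exercise was 4.19 on the log2 scale, with an interval of the read ratio from 2.83 to 7.87, and it was at least 15.3-fold higher in E(+)T(+) than in E(-)T(+). Cd200r3, a surface receptor of basophils and mast cells, did not share this pattern. It had 9, 14, 2 and 7 reads, and its difference in the tumor effect with exercise was -0.60, with an interval from -2.20 to 0.75. The interleukin 3 receptor chain Il3ra had 25, 20, 18 and 26 reads, and the cytokine genes Il4 and Il13 had 0 reads in all 4 libraries, where the floor of 3 reads stands for 0.321 CPM in the shallowest. The integrin chain Itga2 had 50, 17, 14 and 28 reads. Of the 4 listed basophil genes that passed the filter, 3 were called higher in the exercise effect with tumor and 2 in the tumor effect with exercise. Prss34 is counted in both, and like Mcpt8 it passed the filter only through E(+)T(+), so that its calls there were fixed by the filter. Neutrophil markers were also highest in E(+)T(+) by their sums. The summed normalized count of 7 mature neutrophil markers was 3934, 12162, 10073 and 206026, and that of 9 neutrophil precursor markers was 1771, 2451, 4244 and 18893. Mcpt8 stood at 0, 0.352, 0.0129 and 3.68 per 1000 precursor marker counts, and at 0, 0.0709, 0.00544 and 0.337 per 1000 mature neutrophil marker counts, where the value for the cancer control stands for 0 reads. All 7 mature and all 9 precursor markers were called higher in the tumor effect with exercise. In the exercise effect with tumor 7 of the 9 precursor markers were called higher and 1 lower (Ltf, at -1.40), and 7 of 7 mature markers higher. Of the precursor markers 8 of 9, and of the mature markers 5 of 7, were called higher in the tumor effect without exercise, where Mcpt8 had 0 reads in both libraries. Those 8 include Elane, which had 1 read against 0 there and was thus under the floor in both libraries. The precursor gene Elane passed the filter only through E(+)T(+), which fixed its call, and Elane and Ctsg were at 0 reads in both libraries without tumor. Their part in the result was not tested.

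Among the mast cell proteases, Mcpt4 was found in all libraries but the cancer control. Mcpt4, the chymase of connective tissue mast cells, had 9, 7, 0 and 24 reads. The first 2 libraries did not differ beyond counting error, with a difference of -0.22 and an interval from -1.91 to 1.34. Mcpt4 was at least 2.33-fold lower in E(-)T(+) than in E(-)T(-) with 3 reads in place of the 0, and the interval of the read ratio ended at -0.61. It was at least 8.54-fold higher in E(+)T(+) than in E(-)T(+), and 1.96 higher on the log2 scale than in E(+)T(-), with an interval from 0.87 to 3.58. Of the 75-base words at the 3' end of Mcpt4, 6.1% were shared with the neighbouring chymase gene Cma2, which itself had 0, 2, 0 and 2 reads.

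Cma1, another mast cell chymase, had 39, 30, 6 and 17 reads, and was highest in E(-)T(-). The 3 higher libraries formed a run in which no neighbours differed beyond counting error. E(-)T(+) stood below that run, with a tumor effect without exercise of -2.16 (interval -3.86 to -1.08) and an exercise effect with tumor of 1.45 (interval 0.19 to 3.23), which was 0.90 with library totals alone. The tumor effect with exercise was -0.45 and its interval, -1.42 to 0.43, included 0. Of its 3' words 3.97% were shared with Gm48934.

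Cpa3 was the protease that differed beyond counting error in every comparison. Cpa3, the carboxypeptidase of mast cell granules, which basophils and their progenitors also express, had 20, 39, 6 and 58 reads. The order of its levels ran from cancer exercise through normal exercise and the normal control to the cancer control, and all neighbours in it differed beyond counting error, although the last pair did so only just. The exercise effect was 1.04 without tumor (interval 0.26 to 1.93) and 3.16 with tumor (2.16 to 4.87), a fold of 8.96. The effect without tumor lay close to the 2-fold limit, and was 0.95 with library totals alone or without hemoglobin genes and 0.93 with a pseudocount of 4. The tumor effect was -1.23 without exercise (-2.98 to -0.0018) and 0.90 with exercise (0.31 to 1.54). The miRNA gene Mir7007 lies inside Cpa3 on the same strand.

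Of Mcpt4, Cma1, Cpa3 and Tpsb2, only Tpsb2 did not have the cancer control as its lowest library. Tpsb2, a mast cell tryptase at chr17:25366305-25369098 on the plus strand, had 14, 25, 19 and 34 reads. No difference reached 2-fold. The exercise effect was 0.90 without tumor (interval -0.05 to 2.01) and also 0.90 with tumor (0.08 to 1.83), and the tumor effect was 0.77 without exercise (-0.27 to 1.92) and 0.76 with exercise (0.0039 to 1.60). The related tryptase Tpsab1 had 1, 2, 54 and 20 reads and was thus highest in the cancer control, at 5.10 over E(-)T(-) (interval 3.58 to 11.5). It was lower in E(+)T(+) than in E(-)T(+), by a difference of -1.30 (-2.16 to -0.58). Tpsb2 shared no 75-base word with any other gene in the last 500 bases of its transcripts.

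Reads of the 6 more specific mast cell genes, Mcpt4, Cma1, Tpsb2, Cpa3, Fcer1a and Ms4a2, were also summed, because most of them are low. The sums were 90, 114, 32 and 144 reads, so that the cancer control was lowest and the cancer exercise library highest. The log2 ratio was 0.45 (interval 0.042 to 0.87) for the exercise effect without tumor and -1.13 (-1.76 to -0.53) for the tumor effect without exercise. It was 2.26 (1.70 to 2.86) for the exercise effect with tumor and 0.68 (0.32 to 1.05) for the tumor effect with exercise. These values depend on which genes are summed. With the tryptase Tpsab1 added, a choice made after its values were seen, the sums were 91, 116, 86 and 164 reads. After scaling by effective library size, the tumor effect without exercise then turned direction, to 0.29, with an interval (-0.16 to 0.73) that included 0. The exercise effect with tumor was then 1.02 (0.64 to 1.42). Fcer1a and Ms4a2 are also basophil genes, and in E(+)T(+) Cpa3 carried 58 of the 144 reads.

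Other mast cell genes did not share one direction. Of 14 listed, 7 passed the filter. In the tumor effect without exercise 4 were called higher and none lower, the opposite of the 5 lower and 0 higher among the 9 genes above. Those 4 were Tpsab1, Mcpt2, Il1rl1 and Hpgds. Il1rl1, the interleukin 33 receptor, which type 2 innate lymphoid cells and regulatory T cells also express, had 27, 72, 917 and 115 reads, and Hpgds, a prostaglandin D2 synthase, had 29, 21, 46 and 22. Mcpt2, a chymase of mucosal mast cells, had 2, 18, 8 and 24 reads and an exercise effect without tumor of 2.76 (interval 1.22 to 6.43). Slc18a2, the transporter that loads histamine into granules, had 47, 41, 18 and 46 reads, with an exercise effect with tumor of 1.40 (0.63 to 2.32). The mast cell receptors Mrgprb1 and Mrgprb2 had 0 reads in all 4 libraries, and Rgs13 had 6 reads in E(-)T(-) and 0 in the others.

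**Figure D3:**
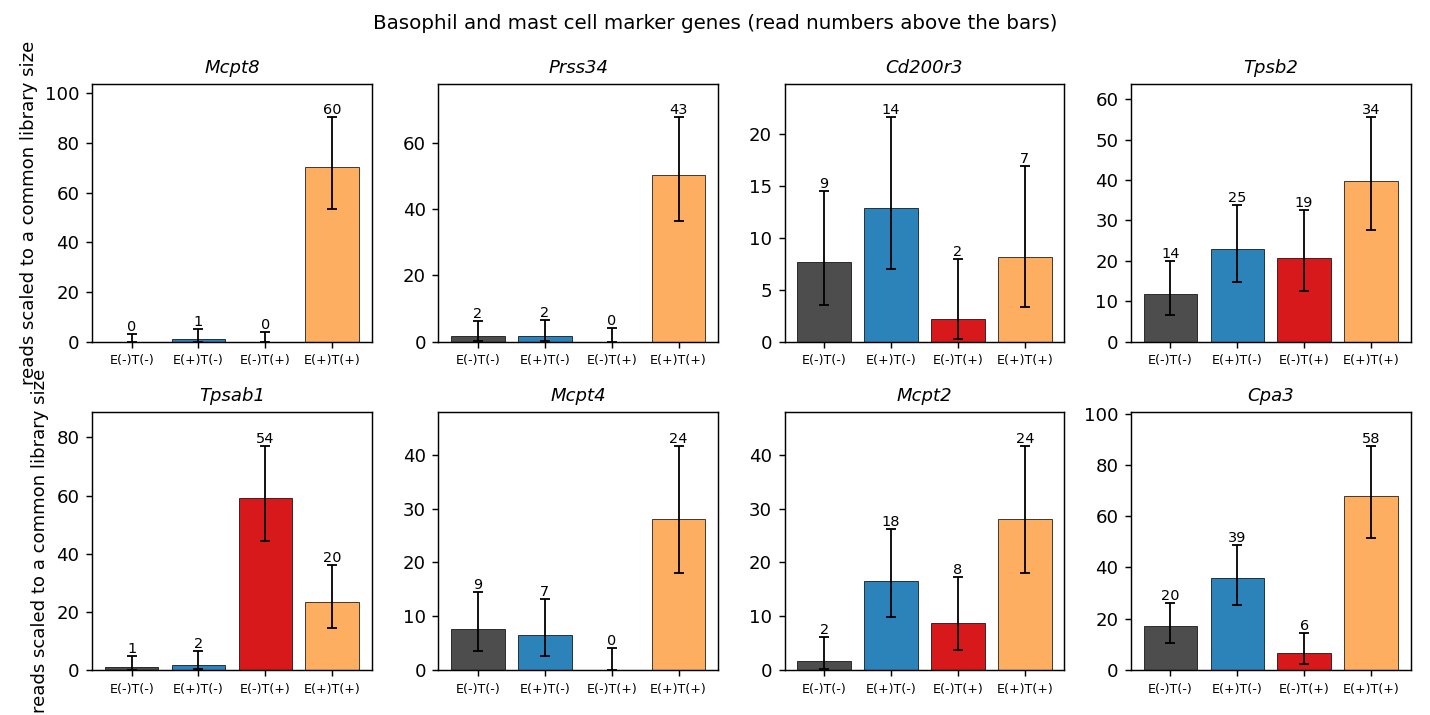
Reads of 8 basophil and mast cell genes scaled to a common library size (y axis, from 0, a separate scale per gene) in the 4 libraries (x axis), with 95% exact Poisson intervals for counting error and the read number above each bar. Mcpt8 (60 reads) and Prss34 (43 reads) are high in E(+)T(+) alone, Tpsab1 is highest in E(-)T(+) at 54 reads, and Cpa3 and Mcpt4 are highest in E(+)T(+).

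The specific chains of the IgE receptor were close to the limit of detection. Fcer1a, at chr1:173221284-173227214 on the minus strand, had 6, 7, 1 and 7 reads. Ms4a2, at chr19:11615523-11623719 on the minus strand, had 2, 6, 0 and 4. Both had their lowest number in E(-)T(+), but for neither gene did any neighbouring libraries in the order differ beyond counting error. The exercise effect with tumor was 2.09 for Fcer1a, with an interval of the read ratio from -0.06 to 8.39. For Ms4a2, with 4 reads against 0, it was 1.42-fold with 3 reads in place of the 0. That is no lower bound, because the interval began at -0.51. In the tumor effect without exercise, Ms4a2 was at or under the floor in both libraries and has no fold. At this depth no difference in these chains was detectable in the 4 comparisons. Fcer1a is nevertheless among the genes counted as called in both comparisons with E(-)T(+). Without it, that is with calls limited to intervals that leave out 0, 6 genes were higher in the exercise effect with tumor and 4 lower in the tumor effect without exercise. The share of all rows under that limit was not computed.

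Genes that carry the signal of the receptor had more reads, and they are shared with other blood cells. Of 14 listed, all passed the filter. In the exercise effect with tumor 11 were called higher and 1 lower (Plcg1, with 4 reads against 13), with a median of 1.80, and in the tumor effect without exercise 7 were called lower and none higher, with a median of -1.09. In the tumor effect with exercise 7 were called higher and 1 lower, and in the exercise effect without tumor none was called. The shared gamma chain Fcer1g had 822, 911, 1200 and 3501 reads, and it was higher in the cancer control than in the normal control, by 0.91 (interval 0.78 to 1.04), where Fcer1a had 1 read against 6. The kinase gene Syk had 328, 355, 85 and 670 reads, with an exercise effect with tumor of 3.06 (2.74 to 3.42) and a tumor effect with exercise of 1.26 (1.08 to 1.45). Lyn, the kinase that phosphorylates the receptor first, had 1642, 1617, 477 and 1693 reads. The part of the neutrophil markers given above in these values was not tested.

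By the deposited values Kit had the largest tumor effect without exercise of the 10 genes, although Mcpt4, with 0 reads in the cancer control, has only a bound there. Kit, the stem cell factor receptor, at chr5:75574916-75656722 on the plus strand, had 786, 456, 41 and 207 reads. All neighbouring libraries in the order of levels differed beyond counting error, with the normal control highest and the cancer control lowest. The tumor effect without exercise was -3.86 on the log2 scale (interval -4.38 to -3.44), a 14.5-fold lower value. The exercise effect was -0.67 without tumor (-0.84 to -0.50) and 2.40 with tumor (1.94 to 2.95), the latter being 1.80 with library totals alone. The tumor effect with exercise was -0.79 (-1.04 to -0.55), and with library totals alone it was -1.20 and thus past 2-fold. Its ligand gene Kitl, which stromal, endothelial and epithelial cells express, had 2022, 1659, 365 and 558 reads, and was called lower both in the tumor effect without exercise, at -2.10, and in the tumor effect with exercise, at -1.22.

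Endothelial markers moved with Kit in the cancer control. The summed normalized count of 10 markers, Pecam1 and Cdh5 among them, was 32628, 34657, 4637 and 33406, and all 10 were called lower in the tumor effect without exercise and higher in the exercise effect with tumor. No endothelial marker was at 0 in any library. Kit stood at 20.5, 12.1, 9.71 and 7.25 per 1000 endothelial marker counts, so that the ratio was lowest in E(+)T(+), where the endothelial sum was back near its level in E(-)T(-). In the tumor effect with exercise only 1 endothelial marker was called higher and 2 lower, with a median of -0.15. Markers of hematopoietic progenitors did not move in one direction. Meis1 had 559, 318, 13 and 110 reads, whereas Cd34 had 1775, 2190, 7166 and 1892 and Sox4 had 1427, 812, 2549 and 413, and the summed normalized count of the 8 markers was 3348, 3185, 10748 and 3135. Cd34 (7852) and Sox4 (2793) made up nearly all of the sum in E(-)T(+), so it does not stand for the other markers. Of the 7 that passed the filter, 4 were called higher and 2 lower in the tumor effect without exercise, and Gfi1, at 0 reads in E(+)T(+), was the only one at 0 in any library. The part of endothelial or progenitor RNA in the Kit and Gata2 values was not tested.

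Of Kit, Gata2 and Hdc, Gata2 had the smallest range. Gata2, at chr6:88193891-88207032 on the plus strand, had 1220, 1339, 508 and 429 reads. Both tumor libraries were below both libraries without tumor. The tumor effect was -0.90 without exercise (interval -1.05 to -0.75) and -1.29 with exercise (-1.45 to -1.14), and the second passed 2-fold. The exercise effect was 0.25 without tumor (0.13 to 0.36) and -0.15 with tumor (-0.34 to 0.04), so that the 2 tumor libraries did not differ beyond counting error. That holds for the main scaling, since the effect with tumor was -0.76 with library totals alone, where the median of all rows was -0.59. Gata2 thus did not have the order of the endothelial sum, and stood at 31.8, 35.5, 120.0 and 15.0 per 1000 endothelial marker counts. Nor did it have the order of its relative Gata1, a factor of mast cell, red cell and platelet lineages, which had 1, 19, 15 and 163 reads and a tumor effect with exercise of 3.38 (2.76 to 4.22). Of 11 partner transcription factors listed, 7 were called lower and 1 higher in the tumor effect without exercise, and 7 higher and none lower in the exercise effect with tumor. Tal1 had 356, 350, 73 and 397 reads and Lmo2 had 993, 719, 81 and 197. Markers of red cells and megakaryocytes were also called higher in the tumor effect with exercise, 9 of the 9 that passed the filter, Gata1 among them, although Gfi1b and Klf1 passed it only through E(+)T(+), where they are high. Their summed normalized count was 1517, 2348, 5117 and 20569.

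**Figure D4:**
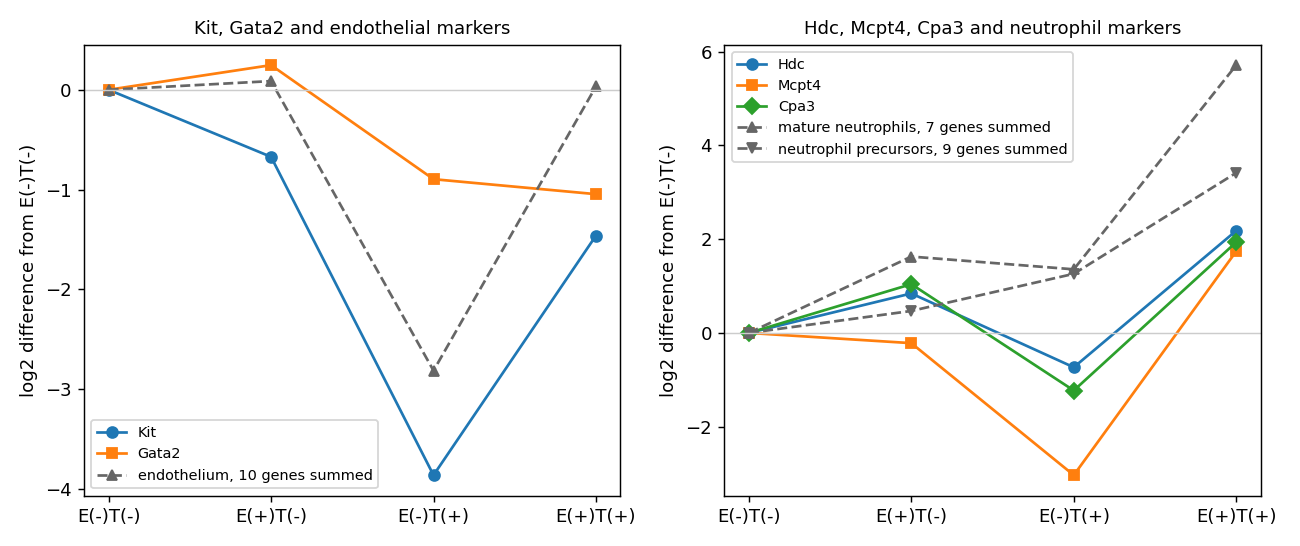
Log2 difference from E(-)T(-) (y axis) in the 4 libraries (x axis) for Kit and Gata2 with the sum of 10 endothelial markers (left), and for Hdc, Mcpt4 and Cpa3 with the sums of 7 mature and 9 precursor neutrophil markers (right). Kit and the endothelial sum are both lowest in E(-)T(+), and Kit stays below the normal control in E(+)T(+) while the endothelial sum does not. Hdc is lowest in E(-)T(+) and the neutrophil sums are lowest in E(-)T(-).

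Hdc was highest in the cancer exercise library. Hdc, at chr2:126593667-126619299 on the minus strand, had 646, 1072, 301 and 2131 reads. All neighbouring libraries in the order of levels differed beyond counting error, and the order was that of Cpa3. The exercise effect was 0.84 without tumor (interval 0.70 to 0.99) and 2.91 with tumor (2.74 to 3.10), a fold of 7.53. With library totals alone the effect with tumor was 2.31. The tumor effect was -0.73 without exercise (-0.94 to -0.54) and 1.34 with exercise (1.23 to 1.45), the latter being 0.93 with library totals alone. The neutrophil marker sums given above were highest in E(+)T(+) and lowest in E(-)T(-). Hdc stood at 139.5, 81.0, 32.8 and 12.1 per 1000 mature neutrophil marker counts, and at 309.9, 401.7, 77.7 and 131.8 per 1000 precursor marker counts. The part of neutrophil RNA in the Hdc values was not tested.

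Genes that handle histamine and lipid mediators were mixed. Of 17 listed, 13 passed the filter, and 7 were called higher and 3 lower in the tumor effect without exercise, against 4 higher and none lower in the exercise effect with tumor. These counts include genes near the floor. Hrh2, with 7, 2, 2 and 13 reads, passed the filter only through E(+)T(+), which fixed its call in the exercise effect with tumor. Cysltr2, with 1, 13, 3 and 6 reads, passed only through E(+)T(-). Cysltr2 was at or under 3 reads in both libraries of the tumor effect without exercise, where the interval for Hrh2 included 0. Hnmt, which inactivates histamine in tissue, had 340, 310, 24 and 171 reads, with a tumor effect without exercise of -3.41 (interval -4.12 to -2.86). The histamine receptor gene Hrh4 had 0 reads in all libraries, and Hrh1 had at most 4. Alox5ap, which presents arachidonic acid for leukotriene synthesis and is high in neutrophils, had 821, 1011, 2115 and 5731 reads, with a tumor effect with exercise of 2.85 (2.75 to 2.95). Of 13 growth and activating cytokines and receptors, 8 passed the filter, and in the tumor effect without exercise 2 were called higher and 3 lower, with a median of 0.10. The mast cell and basophil growth factors Il3 and Il9 had 0 reads in every library. The genes called lower were Kitl and the alarmins Il33, at -1.47, and Tslp, at -2.46, and those called higher were receptors of these alarmins, Il1rl1 at 5.40 and Crlf2 at 1.03 (interval 0.83 to 1.24). Of 6 markers listed for eosinophils, the other granulocytes of allergic responses, Epx had 0, 1, 0 and 0 reads and Prg2, which basophils and mast cells can also express, had 0, 12, 3 and 14. Siglecf had 91, 116, 6 and 24 reads, and Ear1 and Ear2 had 2022, 1275, 65 and 615 reads and 1695, 1390, 80 and 716. Lung macrophages express Siglecf, Ear1 and Ear2 as well. All 4 eosinophil markers that passed the filter were called higher in the exercise effect with tumor, and their part in the other results was not tested.

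For the 7 genes with reads in every library, the exercise effects were also set side by side. The difference between them, with minus without tumor, was 3.07 for Kit, 2.12 for Cpa3, 2.07 for Hdc, 1.80 for Fcer1a and 1.71 for Cma1. It was -0.01 for Tpsb2 and -0.40 for Gata2. Mcpt8, Mcpt4 and Ms4a2 had 0 reads in E(-)T(+), where the value depends on the pseudocount, so none is given for them. The Fcer1a value rests on 1 read in E(-)T(+). With 1 library per group this difference has no test, and it equals the difference between the tumor effects with and without exercise.

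The rows most like each gene were found by the Euclidean distance between the 4 log2 values, each row centred on its own mean, over the 12927 rows that averaged 20 or more normalized counts. The measure is a description over 4 libraries, and for Mcpt8 and Mcpt4, with libraries at 0 reads, the distances depend on the pseudocount. Mcpt8 was nearest to Mrgpra2a at 1.16, S100a8 at 1.24 and S100a9 at 1.31, the last 2 being the neutrophil calprotectin genes. Mrgpra2a, with 2, 7, 1 and 78 reads, reached 20 counts only through E(+)T(+). Mcpt8 passed its own filter only through that library too, so the filters partly fixed their likeness. Mcpt4 was nearest to Icam4 at 0.29, Bpgm at 0.29 and Alas2 at 0.33, all genes of red cells. Kit was nearest to Cd209g at 0.12 and Gata2 to Vps33b at 0.091. Hdc was nearest to Siglece at 0.12, with Nrgn second at 0.30. Cpa3 was nearest to Cystm1 at 0.29, and Nrgn, at 0.37, was among its 3 nearest rows too. Cma1 was nearest to Arhgap29 at 0.053, Tpsb2 to Acpp at 0.21 and Fcer1a to Gjb6 at 0.11. Within the list itself the closest pair was Cpa3 and Hdc, at 0.52.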

How the data were processed

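Lung RNA was measured in 4 libraries, 1 per group, from 500 ng of total RNA. The authors used QuantSeq 3' mRNA-Seq, which reads the 3' ends of transcripts, aligned 75-base single-end reads with Bowtie2, counted them with bedtools coverage and applied the quantile normalization of edgeR. The build named in the submitters' notes is mm10, and versions, annotation and use of strand are not given in the sources used here. The deposited values are on a log2 scale and have the form log2(normalized read count + 1), with 3 decimals, in 23282 rows with 23238 distinct symbols. Whole reads were recovered by inverting a negative binomial quantile adjustment (fitted dispersion 0.372), which returned 100% of the deposited values within 0.001. The recovery was tested on simulated data. No count model was run. Differences were read at 2-fold after a filter on a mean normalized count of at least 4, with a pseudocount of 1 and 95% exact (Clopper-Pearson) intervals of read ratios. Reads carried no molecular identifiers and may be PCR copies, so intervals and floors cover counting error only. The genes and the lists beside them were chosen with earlier results of these data known. Listed genes were named if called at 2-fold in the comparison described or at 0 reads while defining a cell type, and as most alike the 3 nearest rows were kept. Other listed genes named (Il3ra, Cd200r3, Itga2, Lyn, Cma2, Hrh1, Rgs13, Cysltr2, Hrh2 and the eosinophil and progenitor markers) were added after their values were seen. Symbols were matched to GENCODE M21 (GRCm38) and promoters to RefSeq (GRCm38.p6), with 9 of 10 genes found. Alternatives changed the scaling, pseudocount, filter and call limit. Python 3.11.15, numpy 2.4.6, pandas 2.3.3, scipy 1.17.1 and matplotlib 3.10.9 were used.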

Additional observations from a re-analysis of the deposited data

Results flagged for a closer look

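For 4 of the genes the 2 effects of one factor had opposite directions, each with an interval of the read ratio that left out 0, and with 1 library per group the difference between those effects was not tested. The tumor effect on Mcpt4 was -3.03 without exercise and 1.96 with exercise. The first value is set against 0 reads and depends on the pseudocount, and with 3 reads in place of the 0 Mcpt4 was at least 2.33-fold lower. The tumor effect on Cpa3 was -1.23 without exercise and 0.90 with exercise. The tumor effect on Hdc was -0.73 without exercise and 1.34 with exercise. The exercise effect on Kit was -0.67 without tumor and 2.40 with tumor. In each case 1 of the 2 effects uses the E(-)T(+) library, which stood apart from the others.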

How the results depend on the processing

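Each group had 1 library, so no replicate could be left out and the spread between animals is unknown. No paired analysis was possible because no group had a second library. Of 40 single differences 20 were past 2-fold, and of the 100 values that other scalings and pseudocounts gave for these, all 100 kept their sign and 91 were still past 2-fold. Over all 200 such values 1 changed sign, the tumor effect with exercise on Fcer1a (0.29, or -0.06 with library totals alone). A pseudocount of 4 or 0.5 cannot change a sign, so only the other scalings could have done so. The 20 differences past 2-fold include values of Ms4a2, which did not pass the filter. Scaling by library totals alone shifted the median of all rows, which was -0.59 for the exercise effect with tumor and -0.41 for the tumor effect with exercise. The count of genes called higher in the exercise effect without tumor was 1, where 5.28% of all rows were called higher. It was 0 with library totals alone (4.77%), 0 with totals without hemoglobin genes (4.68%) and 0 with a pseudocount of 4 (3.48%). It was 2 with a pseudocount of 0.5 (5.58%) and 2 without a filter (5.65%). The count called lower in the tumor effect without exercise was 5, where 25.7% of all rows were called lower. It was 3 with a pseudocount of 4 (23.9%) and 3 with a mean count of at least 20 (23.8%). With that higher filter, the count called higher was 4 in place of 7 in the exercise effect with tumor and 1 in place of 3 in the tumor effect with exercise. The count called lower in the tumor effect with exercise (1) was 2 with library totals alone, where 9.5% of all rows were called higher and 24.2% lower in place of 14.9% and 13.0% (exercise effect with tumor: 16.4% and 35.4% in place of 24.3% and 17.7%), and with that scaling Hdc lost its call there and Cma1 its call in the exercise effect with tumor. The filter leaves fewer genes to count, and the cause of the other changes was not tested. Depth limits Fcer1a and Ms4a2, with at most 7 reads in any library. The log2 ratio of the summed mast cell reads in the tumor effect without exercise was -1.13 and, with Tpsab1 added after the data were seen, 0.29, and in the exercise effect with tumor it was 2.26 and 1.02.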
